A study of Homo sapiens with 6 samples.

Results

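Chromosomes 11, 17 and 21 held 3149 of the 28879 merged accessible regions on chromosomes 1 to 22 and X, with 1379 on chromosome 11, 1372 on chromosome 17 and 398 on chromosome 21. A region is the union of peaks from any of the 6 libraries that overlapped by 1 bp or more, and every region on the 3 chromosomes was kept. The study used ATAC-seq, in which a transposase cuts open chromatin, on Huh7, a human hepatocellular carcinoma cell line. Cells of all 6 libraries carried a knockout of ARID1A, and each received a lentiviral, stably expressed, Flag-tagged ARID1A. The groups were ARID1A V2084D (V2084D), ARID1A V2084D together with knockdown of STUB1 (V2084D shSTUB1) and wild-type ARID1A (WT), with 2 libraries each. The first 2 groups are called the V2084D-carrying libraries below. The labels name no control hairpin for the V2084D or WT cells, so lowering STUB1 and carrying a hairpin cannot be told apart. They do not say whether replicates were separate cultures or whether the knockout was a single clone, so the spread between libraries may be technical.

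ARID1A is the largest accessory subunit of the canonical BAF form of the SWI/SNF chromatin remodelling complexes, which slide and evict nucleosomes and keep many enhancers and promoters open. STUB1 (also called CHIP) is a ubiquitin ligase that works with HSP70 chaperones on misfolded proteins. Chromosomes 11 and 17 are rich in genes, while the short arm of chromosome 21 carries arrays of 45S ribosomal RNA genes, whose transcript is cut into the 18S, 5.8S and 28S RNAs of the ribosome. The chromosomes were chosen by their background around peaks, recovered from fold and −log10 p, in V2084D-carrying against WT libraries. That contrast is therefore given as a description with no test. The comparison of V2084D shSTUB1 with V2084D was not used in the choice and is tested.

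For each chromosome, the promoter of the top-ranked gene-end region found in all 6 libraries is shown, followed by that of the top-ranked one found in the 4 V2084D-carrying libraries and neither WT library. Regions were ranked by the mean percentile of −log10 q within each list. Each promoter is the RefSeq sequence of build GRCh38.p14, from 250 bases before to 50 bases after the annotated gene start, read 5′ to 3′ on the gene's strand. Capitals mark matches, on either strand, to the GC box (GGGCGG), the CCAAT box (CCAAT) or the letters bound by TEAD factors (GGAATG).
CCDC90B: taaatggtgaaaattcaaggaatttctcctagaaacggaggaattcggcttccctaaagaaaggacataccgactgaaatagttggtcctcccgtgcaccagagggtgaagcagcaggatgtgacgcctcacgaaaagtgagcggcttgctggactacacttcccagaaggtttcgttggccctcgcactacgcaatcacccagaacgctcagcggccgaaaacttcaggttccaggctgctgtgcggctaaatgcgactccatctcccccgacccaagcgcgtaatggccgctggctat
ATG16L2: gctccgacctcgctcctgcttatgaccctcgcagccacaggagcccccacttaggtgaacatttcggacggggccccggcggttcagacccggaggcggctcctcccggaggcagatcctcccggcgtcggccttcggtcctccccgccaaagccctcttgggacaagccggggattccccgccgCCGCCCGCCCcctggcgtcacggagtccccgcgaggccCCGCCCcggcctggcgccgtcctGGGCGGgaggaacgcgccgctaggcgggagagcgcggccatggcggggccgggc
SP2: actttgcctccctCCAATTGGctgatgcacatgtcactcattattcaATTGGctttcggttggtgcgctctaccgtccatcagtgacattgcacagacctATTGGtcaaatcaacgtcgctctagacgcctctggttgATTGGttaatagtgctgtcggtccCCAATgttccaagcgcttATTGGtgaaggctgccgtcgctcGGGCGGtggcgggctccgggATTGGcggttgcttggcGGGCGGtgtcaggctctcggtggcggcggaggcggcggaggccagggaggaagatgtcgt
AARSD1: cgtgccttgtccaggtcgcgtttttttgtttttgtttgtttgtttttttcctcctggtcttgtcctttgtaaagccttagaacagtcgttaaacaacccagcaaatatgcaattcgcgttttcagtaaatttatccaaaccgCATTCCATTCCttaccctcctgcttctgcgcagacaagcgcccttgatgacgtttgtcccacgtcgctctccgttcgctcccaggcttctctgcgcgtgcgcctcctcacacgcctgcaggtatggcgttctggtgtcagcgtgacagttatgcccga
SPATC1L: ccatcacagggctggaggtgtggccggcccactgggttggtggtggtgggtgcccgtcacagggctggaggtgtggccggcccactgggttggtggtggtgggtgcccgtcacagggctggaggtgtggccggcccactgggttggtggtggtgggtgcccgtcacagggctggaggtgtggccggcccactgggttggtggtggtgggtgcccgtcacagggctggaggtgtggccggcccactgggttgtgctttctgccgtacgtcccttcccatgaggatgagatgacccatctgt
DNAJC28: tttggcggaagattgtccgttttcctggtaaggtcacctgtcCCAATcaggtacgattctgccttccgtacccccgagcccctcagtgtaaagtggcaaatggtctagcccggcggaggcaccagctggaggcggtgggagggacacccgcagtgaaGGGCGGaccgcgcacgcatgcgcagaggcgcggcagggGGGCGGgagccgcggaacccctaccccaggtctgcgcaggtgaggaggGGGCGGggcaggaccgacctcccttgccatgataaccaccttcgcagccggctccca
CCDC90B lies at chr11:83286318-83286617 on the minus strand, and ATG16L2 at chr11:72814161-72814460 on the plus strand. SP2 lies at chr17:47895986-47896285 on the plus strand, and AARSD1 at chr17:42964405-42964704 on the minus strand. Both chromosome 21 promoters, SPATC1L at chr21:46184410-46184709 and DNAJC28 at chr21:33491352-33491651, are on the minus strand. Over these 300 bases, GC content was lowest for AARSD1 (50.3%) and highest for ATG16L2 (75.3%). The SP2 promoter held 8 CCAAT matches, of which one pair shares letters, and 2 GC boxes. ATG16L2 had 4 GC boxes, of which one pair overlaps, and DNAJC28 had 3 GC boxes and 1 CCAAT box. AARSD1 had 2 overlapping matches to the TEAD letters. CCDC90B and SPATC1L had no match to any motif searched. These also included the TATA box, searched as TATAAA, and the core bound by ETS family factors, searched as CCGGAAG. The site of AP-1 factors was searched as TGACTCA, and the E-box of factors such as MYC and USF was searched as CACGTG. Of 22155 RefSeq promoters of the same length, 56.3% held a GC box, 34.6% a CCAAT box, 12.2% the TEAD letters, 12.8% the ETS letters, 9.47% the TATA box, 8.34% the E-box and 4.02% the AP-1 letters. A match describes letters in this window and is not a measured binding site.

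The libraries differed in depth. Peak lists held 9231 to 30768 summits in V2084D-carrying libraries and 7401 to 10441 in WT libraries. The lowest background any summit was set against, which scales with the reads of a library, was 7.62 and 12 reads per 10 kb in V2084D, 9.75 and 8.06 in V2084D shSTUB1 and 6.63 and 6.54 in WT. All 4 V2084D-carrying libraries were thus 1.17 to 1.83 times as deep as the shallower WT library, and the other WT library 1.01 times. Depth moves with the WT contrast throughout and its part in the results was not tested. Of 10 genes that define hepatocytes, 8 had no gene-end peak in any library. Of the other two, APOA1 had one in 3 libraries and GPC3 in 1, so the hepatocyte label is not shown by gene-end peaks at this depth.

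The 3 chromosomes held 11 to 11.2% of the regions of the V2084D-carrying libraries and 11.4 to 11.8% of those of the WT libraries. A peak was present in 897 and 2462 of the 3149 regions in V2084D, in 1868 and 1350 in V2084D shSTUB1 and in 1014 and 754 in WT. The counts ran in the order of depth except that V2084D replicate 1, the deeper library, held fewer regions than WT replicate 1. Gene-end regions, which lie no more than 1000 bp from the start or stop of a protein-coding gene, made up 67.9% and 51.7% of the regions in V2084D, 55.9% and 60.9% in V2084D shSTUB1 and 63.6% and 64.2% in WT. The share averaged 59.1% ± 6.95 in V2084D-carrying libraries (SD, n = 4) and 63.9% ± 0.411 in WT libraries (SD, n = 2), a difference of −4.80 percentage points against a pooled SD of 6.02. Cutting all lists to the 7234 strongest summits turned that difference to 5.19 percentage points. Chromosome 21 had the lowest shares at gene ends in every library, 50.4% and 34.5% in V2084D, 36.2% and 41.3% in V2084D shSTUB1 and 41.8% and 36.0% in WT.

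**Figure D1:**
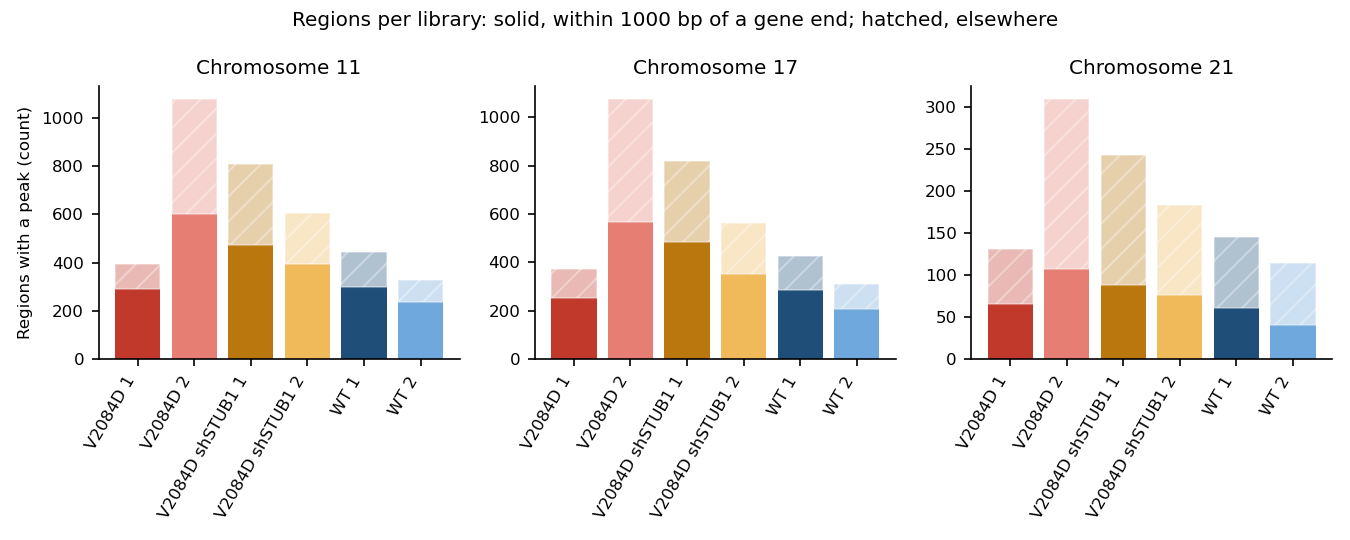
Regions with a peak (count, vertical axis) in each library on chromosomes 11, 17 and 21, split into gene-end regions (solid) and regions elsewhere (hatched); bars are single libraries. V2084D replicate 2, the deepest library, has the most regions on each chromosome, with 1077, 1075 and 310, and WT replicate 2 the fewest, with 329, 311 and 114.

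Most regions were seen in few libraries. In 1 library alone stood 1332 regions (42.3%), and in all 6 stood 380 (12.1%), against 11.3% of all regions of the series. Chromosome 21 had the largest share in all 6 (72 of 398, 18.1%), ahead of chromosome 11 (163 of 1379, 11.8%) and chromosome 17 (145 of 1372, 10.6%). Regions of all 6 libraries lay at gene ends in 75.3% of cases, and those of 1 library in 29.9%. On chromosome 21 that share was 45.8% for regions of all 6 libraries, against 85.3% on chromosome 11 and 78.6% on chromosome 17. Of the 286 gene-end regions present in all 6 libraries, 249 (87.1%) overlapped a RefSeq promoter, against 106 of 398 (26.6%) for those in 1 library. Median widths were 890 to 947.5 bp for regions of all 6 libraries and 202 to 209 bp for those of 1 library on the 3 chromosomes. A merged region grows with the number of lists that hold it, so width and recurrence share their source.

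The top-ranked gene ends of all 6 libraries had folds that mostly overlapped between V2084D-carrying and WT libraries. The fold given here is the authors' enrichment of reads at the summit over the local background. At CCDC90B, which encodes a coiled-coil protein of mitochondria, the fold was 7.41 and 9.16 in V2084D, 9.82 and 10.5 in V2084D shSTUB1 and 7.14 and 9.78 in WT. SP2, a zinc finger transcription factor of the Sp family, had a fold of 8.62 and 13.6 in V2084D, 7.81 and 8.68 in V2084D shSTUB1 and 8.02 and 8.26 in WT. V2084D-carrying and WT libraries overlapped at both genes. Both V2084D shSTUB1 values lay above those of the other groups at CCDC90B. At SP2 both V2084D values lay above both WT values, and V2084D replicate 2 stood highest. SPATC1L, a relative of the sperm centrosome protein speriolin, had a fold of 11 and 11.1 in V2084D, 11.2 and 12.4 in V2084D shSTUB1 and 13 and 10.9 in WT. The next gene ends on chromosome 11 were SPTY2D1, a histone chaperone gene, at 7.65 to 10.2 in V2084D-carrying and 7.39 to 8.33 in WT libraries, and TSSC4, a factor of spliceosome assembly, at 7.14 to 7.97 in V2084D-carrying and 6.58 to 8.40 in WT libraries. On chromosome 17 they were the Mediator subunit MED11, at 7.43 to 11.1 in V2084D-carrying and 7.01 to 9.29 in WT libraries, and COIL, which encodes the Cajal body protein coilin, at 7.32 to 12.8 in V2084D-carrying and 7.22 to 10.3 in WT libraries. On chromosome 21 they were the shared start of CRYZL1 and ITSN1, an endocytic scaffold gene, at 7.14 to 8.78 in V2084D-carrying and 7.79 to 9.29 in WT libraries, and the endosomal recycling gene VPS26C, at 7.91 to 9.68 in V2084D-carrying and 6.67 to 7.73 in WT libraries. WT libraries lay below all 4 V2084D-carrying libraries at VPS26C and overlapped them at the other 8 gene ends named.

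In all 4 V2084D-carrying libraries and neither WT library stood 87 of the 3149 regions (2.76%), beside 2.69% of all regions of the series, and since the WT contrast chose the chromosomes nothing is read from this. They were 44 on chromosome 11, 33 on chromosome 17 and 10 on chromosome 21, with 58 at gene ends and 29 elsewhere. In both WT libraries and no V2084D-carrying library stood 2 regions, beside 0.0658% of all regions. At equal list lengths the counts were 11 (0.752%, beside 1.08% of all regions) and 34 (2.32%, beside 1.69%). At −log10 q of 5 or more they were 28 (1.76%, beside 2.45%) and 0, beside 0.0573%. The balance between the directions thus changed with the lists compared. Leaving out V2084D replicate 1 moved the first count to 225 (7.15%, beside 7.36% of all regions). Without WT replicate 1 it was 221 (7.02%, beside 7.44%) and without WT replicate 2 it was 137 (4.35%, beside 4.18%). Without V2084D shSTUB1 replicate 2 it was 135 (4.29%, beside 4.10%). The second count became 72 without WT replicate 2 (2.29%, beside 2.23%) and 38 without WT replicate 1 (1.21%, beside 1.44%). It was 7 without V2084D replicate 2 (0.222%, beside 0.187%) and 5 without V2084D shSTUB1 replicate 1 (0.159%, beside 0.114%). Between V2084D and WT alone, 175 regions (5.56%) had peaks in V2084D replicates 1 and 2 but not in WT, beside 5.56% of all regions, and 7 (0.222%) were in both WT libraries and neither V2084D library, beside 0.187%. By genes these numbers were 119 (4.39%), beside 5.08% of all genes, and 2, beside 0.0551%. By segment, 60 to 75 Mb of chromosome 11, which holds the most regions, had 13 of the 87 among 384 regions, 15 to 30 Mb had 5 among 83, and 30 to 45 Mb had 0 among 113. By genes, a peak at an end in all 4 V2084D-carrying libraries alone was found for 72 of 2709 protein-coding genes, beside 3.04% of all genes, and none had one in both WT libraries alone, beside 0.025%.

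The top of the 87 on chromosome 11 was the start of ATG16L2, a homologue of an autophagy protein, with a fold of 6.91 and 6.25 in V2084D, 7.32 and 5.37 in V2084D shSTUB1 and no peak in WT. It was followed by DLAT, a catalytic subunit of the pyruvate dehydrogenase complex (5.56 to 9.68 in V2084D-carrying libraries), DPP3, a dipeptidyl peptidase (4.55 to 11.1), and OTUB1, a deubiquitinase (5.98 to 8.15). The top region elsewhere lay inside NAV2, at chr11:20112309-20112929, with folds of 4.79 to 9.09 in V2084D-carrying libraries. On chromosome 17 the first was AARSD1, an editing factor for mischarged alanine transfer RNA, with 7.87 and 8.85 in V2084D, 8.26 and 5.81 in V2084D shSTUB1 and no peak in WT. The shared start of CASKIN2 and TSEN54, a transfer RNA splicing gene, had 5.68 to 7.32 in V2084D-carrying libraries, the homeobox gene DLX4 had 3.61 to 10.6 and the polyubiquitin gene UBB had 5.09 to 9.57. A region inside PRKAR1A, a regulatory subunit of protein kinase A, at chr17:68511572-68512745, led those elsewhere with 5.32 to 7.57. DNAJC28, a J-domain protein gene, led chromosome 21 with 6.82 and 9.81 in V2084D, 7.22 and 6.32 in V2084D shSTUB1 and no peak in WT. The start shared by PIGP, an enzyme of GPI anchor synthesis, and the ubiquitin ligase gene TTC3 had 4.97 to 8.40 in V2084D-carrying libraries, that of HSF2BP and the ribosome biogenesis gene RRP1B had 5.68 to 8.15, and PAXBP1 had 4.0 to 6.94. The region elsewhere was at chr21:8815465-8816042 on the short arm, with 4.29 to 8.14. The summits of these named regions rested on 5 to 33 reads, and no peak in a shallower list does not show closed chromatin.

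The 2 regions of both WT libraries and no V2084D-carrying library were weak. One lay at ST6GALNAC2 on chromosome 17, a sialyltransferase gene, with a fold of 4.46 and 5.21 in WT from 8 and 9 reads. The other, at chr21:10810062-10810439, lay 204346 bp from the nearest protein-coding gene, TPTE, with a fold of 5.17 and 4.55 in WT from 5 reads each.

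Between V2084D shSTUB1 and V2084D, the presence of regions on the 3 chromosomes was near that of the series in both directions. In both V2084D shSTUB1 libraries and neither V2084D library stood 35 regions (1.11%), beside 1.29% of all regions, and 24 of the 35 lay away from gene ends. By genes, 6 were of this kind, beside 0.346% of all genes, and 20 were of the reverse kind, beside 0.676%. The reverse held for 38 regions (1.21%), beside 1.19% of all regions. OLIG1, a transcription factor of the oligodendrocyte lineage, had a fold of 5.92 and 5.07 in V2084D shSTUB1 and no peak in V2084D or WT. COPB1, a coatomer subunit gene of Golgi transport, had no peak in V2084D shSTUB1, a fold of 5.71 and 6.45 in V2084D and no peak in WT. The top region of the first kind on chromosome 11, inside the pyruvate carboxylase gene PC, and on chromosome 17, 11077 bp from C17orf67, had folds of 5.13 and 5.15, and of 5.15 and 8.11, in V2084D shSTUB1. Both also had a peak in WT replicate 1, with folds of 6.82 and 6.06. Of the second kind, a chromosome 17 region 6781 bp from the carbonic anhydrase gene CA4 had folds of 5.43 and 6.58 in V2084D and 5.91 in WT replicate 1. One inside SLC37A1 on chromosome 21 had 6.94 and 5.56 in V2084D and no peak in WT. With 2 libraries a group no exact test of one region can go below p = 0.333, so these are counts of presence and not calls.

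Genes of the 3 chromosomes were grouped into lists by function or position. Of all 2709, 14.5% had a peak at an end in every library, beside 16.2% of the genes of the series, and 1267 (46.8%) had none in any, beside 41.8%. Of 31 measured chromatin regulators, 14 had one in all 6 libraries and 4 in none. KAT5, the catalytic subunit of the NuA4 acetyltransferase, had a fold of 8.41 and 8.06 in V2084D, 8.28 and 7.84 in V2084D shSTUB1 and 7.48 and 5.88 in WT, so both WT values lay below the other four. KAT7, another histone acetyltransferase, had 6.84 to 9.13 in V2084D-carrying and 6.19 to 6.98 in WT libraries, and the end shared by the deacetylase gene SIRT3 and the proteasome gene PSMD13 had 6.82 to 7.75 in V2084D-carrying and 6.98 to 7.78 in WT libraries. Of the SWI/SNF subunit genes in the list, DPF2 was open at its end in all 6 libraries, SMARCD2 in the 4 V2084D-carrying libraries alone and SMARCE1 in 1 library. The product of DPF2 reads histone tails for the BAF complex, and SMARCD2 and SMARCE1 encode core and accessory BAF subunits.

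Genes of protein synthesis and turnover mostly had a gene-end peak in at least 1 library. Of 11 proteasome genes, 5 had a peak in all 6 libraries and none lacked one in every library. PSMC5, an ATPase of the proteasome cap, had a fold of 8.93 and 8.90 in V2084D, 8.45 and 8.33 in V2084D shSTUB1 and 9.35 and 6.32 in WT. Among 12 cytosolic ribosomal protein genes, 4 had a peak in all 6 and none lacked one throughout, and RPLP2, a protein of the ribosomal stalk, had 5.76 to 7.73 in V2084D-carrying and 6.96 to 7.14 in WT libraries. For 17 mitochondrial ribosomal protein genes the numbers were 3 in all 6 and 2 in none, with MRPL38 at 5.77 to 9.43 in V2084D-carrying and 5.75 to 5.83 in WT libraries. The list of HSP70 chaperone and co-chaperone genes had 4 of 10 members in all 6 libraries and 2 in the V2084D-carrying libraries alone, beside 3.04% of all genes. The 2 were DNAJC28 and AARSD1, and the latter is described above by its role in editing mischarged transfer RNA, not as a chaperone. As the WT contrast chose the chromosomes, nothing is read from this count. HSPA13, an HSP70 relative of the endoplasmic reticulum, had 5.62 and 7.45 in V2084D, 7.19 and 7.98 in V2084D shSTUB1 and 9.13 and 8.33 in WT, with WT the higher. STIP1, which links HSP70 to HSP90, had 5.19 to 8.0 in V2084D-carrying and 7.20 to 8.99 in WT libraries. Of 17 DNA damage response genes, 4 were in all 6 libraries and none in no library. The nuclease gene FEN1 had 6.18 to 8.77 in V2084D-carrying and 7.59 to 8.05 in WT libraries, and the kinase gene ATM lacked a peak in V2084D replicate 1 and had 5.65 to 7.48 in the other V2084D-carrying libraries and 8.70 and 6.48 in WT.

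Several clusters of tissue-specific genes had no gene-end peak in any library at this depth. No gene-end peak was found for any of 184 olfactory receptor genes, 94 keratin-associated protein genes, 27 type I keratins, 14 CC chemokines, 9 matrix metalloproteinases of 11q22 or 5 beta-globin genes. Liver genes were mostly without one. Of 17 hepatocyte secreted protein genes, 12 had none, 1 (SHBG, whose gene end is shared with FXR2) had a peak in all 6, and APOA5, a regulator of plasma triglycerides, had 5.36, 5.56 and 5.30 in 3 V2084D-carrying libraries and no peak in WT. For lipid and carbohydrate genes, 4 of 20 were in all 6 libraries and 7 in none. NR1H3, which encodes the oxysterol receptor LXR alpha, had 4.95 to 7.53 in V2084D-carrying and 6.0 and 5.34 in WT libraries. Markers of other cell types were mostly without peaks: 10 of 13 leukocyte, 5 of 7 endothelial and fibroblast and 5 of 8 neural genes had none. The exception in all 6 libraries was COL1A1, a fibrillar collagen gene of fibroblasts, with 4.0 to 6.96 in V2084D-carrying and 6.38 and 7.22 in WT libraries.

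Clusters named for cancer or development gave mixed counts. In the 11p15 imprinted region 2 of 12 genes were in all 6 libraries and 7 in none. The 11q13 amplicon had 1 of 12 in all 6, PPFIA1, and 5 in none, and the HOXB cluster had 0 of 10 in all 6 and 8 in none. YAP1, a Hippo pathway coactivator on 11q22, had a peak in 2 libraries, with a fold of 4.11 in V2084D replicate 2 and 4.74 in V2084D shSTUB1 replicate 2, and its neighbour BIRC2, an inhibitor of apoptosis, in 4. The ERBB2 region had 2 of 14 genes in all 6, CDK12 and TOP2A, and 4 in none, and the end that ERBB2 shares with PGAP3 had 5.80 to 9.09 in V2084D-carrying libraries and 5.77 in WT replicate 1 alone. On chromosome 21, 3 of 11 genes of the Down syndrome region, 2 of 11 transcription factors and 1 of 4 interferon receptors were in all 6 libraries. IFNAR1, the first chain of the type I interferon receptor, had 7.43 to 9.02 in V2084D-carrying and 5.38 to 7.14 in WT libraries. GABPA, an ETS family factor, had 5.12 to 7.47 in V2084D-carrying and 4.37 to 6.78 in WT libraries, and OLIG2 had 5.08 to 8.91 in V2084D-carrying and 3.68 to 6.99 in WT libraries.

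The background under the peaks was recovered from each summit's fold and −log10 p. The fold is (summit reads + 1) / (background + 1), so both fix the whole number of reads and the expected reads, which at a fragment length of 200 bp are steps of 1 read per 10 kb. Background reads are the number of reads in the wider neighbourhood, the peak's own reads included. For each library, the relative background is the log2 of this value at a region's strongest summit minus the library's mean over all regions of the same class, gene end or elsewhere. A chromosome or segment takes the mean over its regions.

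All 3 chromosomes had lower relative background in the V2084D-carrying than in the WT libraries. Chromosome 11 averaged −0.14 ± 0.04 in V2084D-carrying and −0.03 ± 0.02 in WT libraries (SD, n = 4 and 2), a difference of −0.11. Its values were −0.19 and −0.09 in V2084D, −0.14 and −0.13 in V2084D shSTUB1 and −0.05 and −0.01 in WT. Chromosome 17 stood at 0.03 ± 0.02 in V2084D-carrying and 0.14 ± 0.02 in WT libraries, also a difference of −0.11, and no V2084D-carrying library reached a WT library on either chromosome. Chromosome 21 was the highest of 23 chromosomes in level, at 0.89 ± 0.08 in V2084D-carrying and 1.25 ± 0.14 in WT libraries, a difference of −0.37. Its libraries held 0.97 and 0.86 in V2084D, 0.79 and 0.93 in V2084D shSTUB1 and 1.35 and 1.16 in WT. These were the 3 lowest differences of the 23 chromosomes, and chromosome 20, the next, stood at −0.06. Since this contrast chose the chromosomes, their rank restates that choice and nothing is read from it. On chromosomes 11 and 17 the difference was like at gene ends (−0.09 and −0.13) and elsewhere (−0.14 and −0.13). On chromosome 21 it was 0.00 at gene ends, −0.54 elsewhere and 0.02 without the first 15 Mb.

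Of 19 segments of 15 Mb, 18 held 10 or more regions in every library, and the last of chromosome 21 held as few as 5. In 6 of the 18 (33.3%) all 4 V2084D-carrying libraries lay below both WT libraries, beside 13.7% of 190 segments of the series, and in 1 all lay above, beside 21.1%. The WT contrast chose the chromosomes, so nothing is read from these shares. Their median difference was −0.08, beside 0.01 over all segments, and 16 of the 18 were negative. Scaling to each library's lowest background instead moved the median of all segments to −0.16 and that of the 18 to −0.24.

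**Figure D2:**
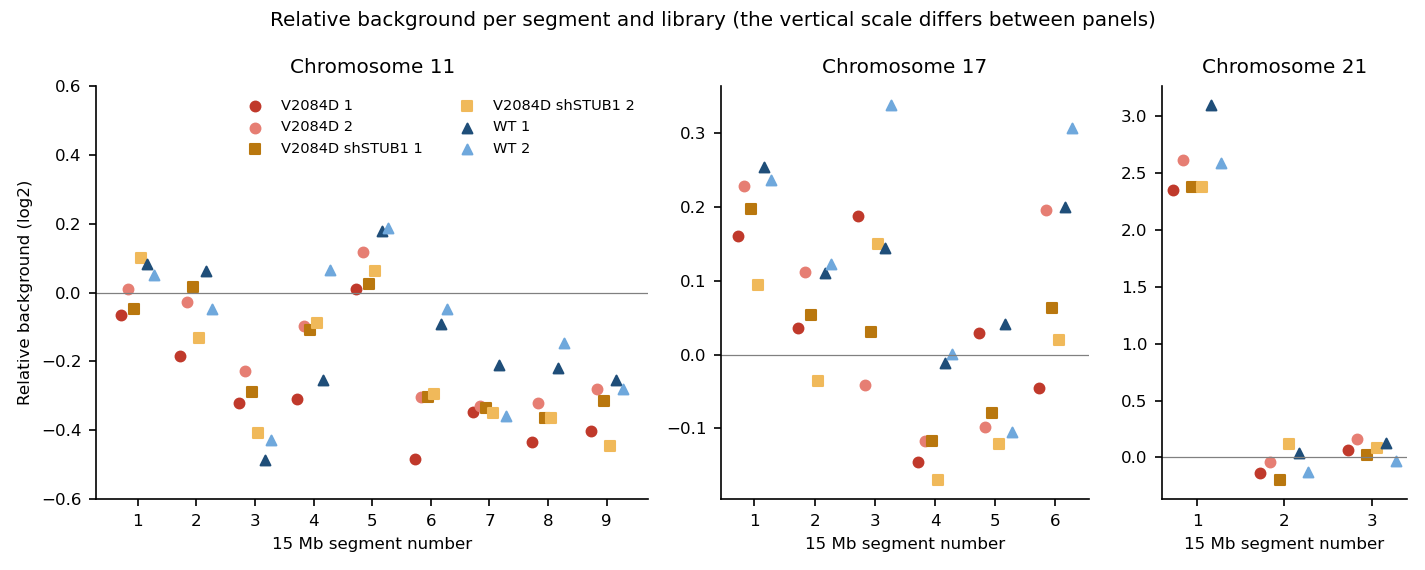
Relative background (log2, vertical axis) of each library in the 15 Mb segments of chromosomes 11, 17 and 21 (horizontal axis, numbered from the first base). Points are single libraries, circles V2084D, squares V2084D shSTUB1, triangles WT; segment 6 of chromosome 11 and segment 4 of chromosome 17 show both WT libraries above the rest, and segment 1 of chromosome 21 lies at 2.35 to 2.61 in V2084D-carrying and 2.59 to 3.10 in WT libraries.

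Over both region classes, the 3 segments of chromosome 11 with V2084D-carrying libraries lower without overlap lay on the long arm. The 1 with them higher lay on the short arm. From 75 to 90 Mb the relative background was −0.48 and −0.30 in V2084D, −0.30 and −0.29 in V2084D shSTUB1 and −0.09 and −0.05 in WT, a difference of −0.28 against a pooled SD of 0.08. Segments at 60 to 75 Mb and at 105 to 120 Mb differed by −0.13 and −0.19. Gene-end regions alone gave −0.12 at 60 to 75 Mb and −0.14 at 75 to 90 Mb, both without overlap. They gave −0.09 at 105 to 120 Mb, where the libraries then overlapped. The short-arm segment at 0 to 15 Mb differed by −0.07 with overlap over both classes. Its gene ends alone gave −0.14 without overlap, as did its regions of all 6 libraries, and its regions elsewhere 0.07 with overlap. The split by arm thus depends on the regions used. The segment at 30 to 45 Mb stood at −0.31 ± 0.07 in V2084D-carrying and −0.46 ± 0.04 in WT libraries, a difference of 0.15, and gene ends alone gave 0.23. Over the 18 segments of chromosomes 11, 17 and 21, leaving out WT replicate 2 raised the count with V2084D-carrying libraries lower to 11. Leaving out WT replicate 1 raised the count with them higher to 3. Each leaves 1 WT library to compare. The shares over all segments were not computed there, so nothing is read from these counts.

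On chromosome 17 all 6 segments were lower in V2084D-carrying libraries, 3 of them without overlap, at 0 to 15, 45 to 60 and 75 to 90 Mb. The segment at 45 to 60 Mb stood at −0.14 ± 0.03 in V2084D-carrying and −0.01 ± 0.01 in WT libraries, a difference of −0.13. The last segment had the largest difference, −0.20, at −0.05 and 0.20 in V2084D, 0.06 and 0.02 in V2084D shSTUB1 and 0.20 and 0.31 in WT. There V2084D replicate 2 nearly reached WT replicate 1. Gene-end regions alone gave −0.06 at 0 to 15 Mb, with overlap, and −0.16 and −0.19 in the other two, without. The smallest difference of chromosome 17 over both classes was −0.04, at 60 to 75 Mb, with overlap. There gene ends alone gave −0.11 without overlap, and regions elsewhere gave 0.05 with overlap. At 30 to 45 Mb gene ends alone gave −0.17 without overlap, while both classes together overlapped.

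**Figure D3:**
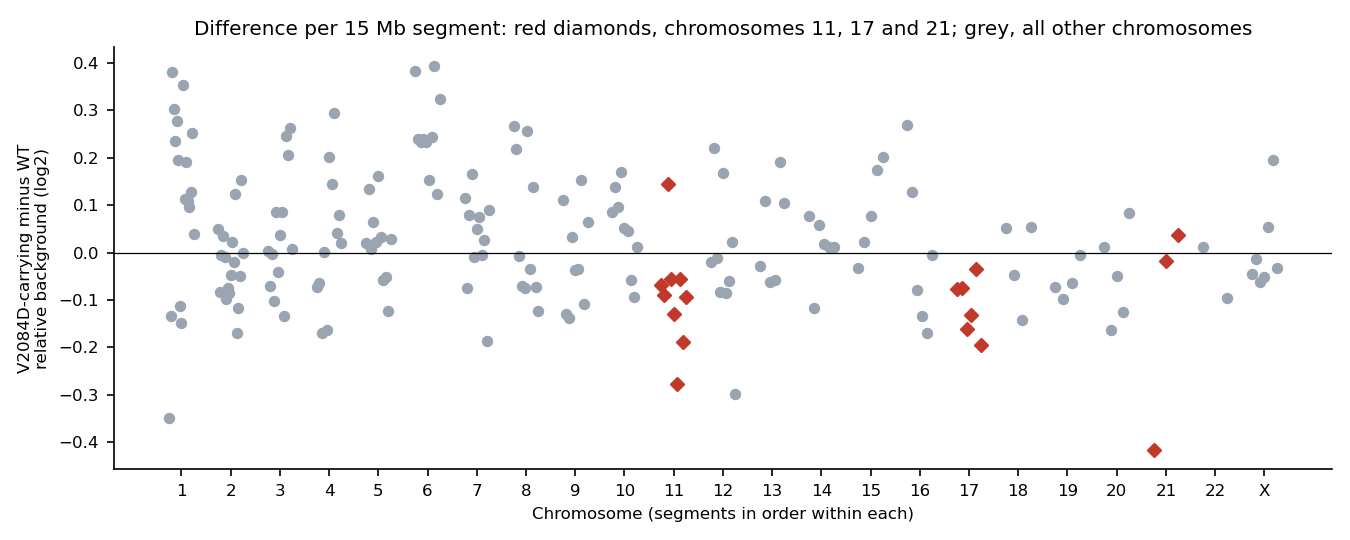
Difference in relative background (log2, vertical axis), V2084D-carrying minus WT group means, for 190 segments of 15 Mb in chromosome order (horizontal axis). Red diamonds are the 18 segments of chromosomes 11, 17 and 21, from −0.42 to 0.15; grey points are the segments of all other chromosomes, from −0.35 to 0.39.

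Regions found in all 6 libraries allow the same peaks to be compared, with the relative background centred on such regions. Of these 380 regions, 94 (24.7%) had all V2084D-carrying libraries below both WT libraries, beside 13.4% of such regions in the series, and 20 (5.26%) had them above, beside 14% in the series. Their median difference was −0.12, beside −0.01 over all such regions. As the WT contrast chose the chromosomes, nothing is read from these shares or from this median. In the segment at 75 to 90 Mb of chromosome 11, 5 of 9 shared regions lay lower without overlap and 2 lay higher. PCF11, a factor of messenger RNA 3′ end cleavage, had 46 and 90 background reads per 10 kb in V2084D, 67 and 51 in V2084D shSTUB1 and 75 and 70 in WT. Its relative background was 0.14 and −0.01 in V2084D, −0.03 and −0.08 in V2084D shSTUB1 and 0.80 and 0.86 in WT, a difference of −0.82. INTS4, an Integrator subunit gene, had 25 and 49 in V2084D, 40 and 34 in V2084D shSTUB1 and 41 and 36 in WT, a difference of −0.68 after scaling. CCDC90B, whose promoter is printed above, had 31 and 81 in V2084D, 62 and 45 in V2084D shSTUB1 and 48 and 42 in WT, a difference of −0.39. EMSY, a BRCA2 partner, and the shared end of DLG2 and TMEM126B differed by −0.40 and −0.31. PICALM, a clathrin assembly gene, went the other way, with 45 and 75 in V2084D, 67 and 52 in V2084D shSTUB1 and 28 and 29 in WT, a difference of 0.46, as did TMEM135 at 0.28. These 9 are few of the 110 regions of the segment, of which 46 lay at gene ends. Regions elsewhere in it differed by −0.72, with as few as 3 in a library.

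In the last segment of chromosome 17, 4 of 20 shared regions were lower without overlap and none higher. P4HB, a protein disulfide isomerase gene, had 52 and 107 reads per 10 kb in V2084D, 74 and 62 in V2084D shSTUB1 and 77 and 71 in WT, a difference of −0.64. UBALD2 differed by −0.73 and NUP85, a nuclear pore gene, by −0.09. At 30 to 45 Mb of chromosome 11, where the segment lay higher, 2 of 10 shared regions were higher without overlap. The end shared by APIP and PDHX, a pyruvate dehydrogenase component, had 50 and 82 in V2084D, 60 and 59 in V2084D shSTUB1 and 27 and 27 in WT, a difference of 0.61. The end of DCDC1 and DNAJC24 differed by 0.34.

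The first 15 Mb of chromosome 21, which include its short arm and centromere, had by far the highest relative background of the 18 segments. It held 107 regions, of which 10 were at gene ends and 33 were present in all 6 libraries. Median background was 121 and 238 reads per 10 kb in V2084D, 163 and 154 in V2084D shSTUB1 and 162.5 and 144 in WT. The high values lay away from gene ends, where the segment's medians were 390 and 251.5 in V2084D, 185 and 172.5 in V2084D shSTUB1 and 312 and 152 in WT. Over all such regions of the series the medians were 27 to 32 in V2084D-carrying libraries and 25 in both WT libraries. The segment's few gene ends had medians of 24 and 54.5 in V2084D, 52 and 37 in V2084D shSTUB1 and 34 and 32.5 in WT, below the medians of all gene ends, which were 37 and 69 in V2084D, 54 and 44 in V2084D shSTUB1 and 36 and 35 in WT. Relative background was 2.35 and 2.61 in V2084D, 2.38 and 2.38 in V2084D shSTUB1 and 3.10 and 2.59 in WT, a difference of −0.42 against a pooled SD of 0.21. WT replicate 2 lay within the V2084D-carrying range. In segments of 10 Mb the difference was −0.62 without overlap at 0 to 10 Mb, and 0.17 with overlap at 10 to 20 Mb.

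The highest background of the regions shared by all 6 libraries in this segment lay over its annotated 45S ribosomal RNA genes. RefSeq places RNA45SN2 at chr21:8205988-8219302, RNA45SN3 at chr21:8389035-8402343 and RNA45SN1 at chr21:8433222-8446572, and 21 of the 107 regions overlapped them, 9 of these in all 6 libraries. This group was formed after its values were seen. The region over the 18S part of RNA45SN2, at chr21:8209608-8211423, had 1289 and 2418 background reads per 10 kb in V2084D, 2035 and 1282 in V2084D shSTUB1 and 2256 and 1446 in WT. Its summit held 69 and 122 reads in V2084D, 116 and 64 in V2084D shSTUB1 and 133 and 101 in WT. Against this background the fold was low, at 2.61 and 2.49 in V2084D, 2.81 and 2.44 in V2084D shSTUB1 and 2.91 and 3.41 in WT. The 18S regions of the other two copies were close to it, and that of RNA45SN3 had 1245 and 2274 reads per 10 kb in V2084D, 1856 and 1204 in V2084D shSTUB1 and 2094 and 1478 in WT. The 3 copies are near-identical and RefSeq lists further copies on scaffolds, so reads assigned to one copy may come from another.

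**Figure D4:**
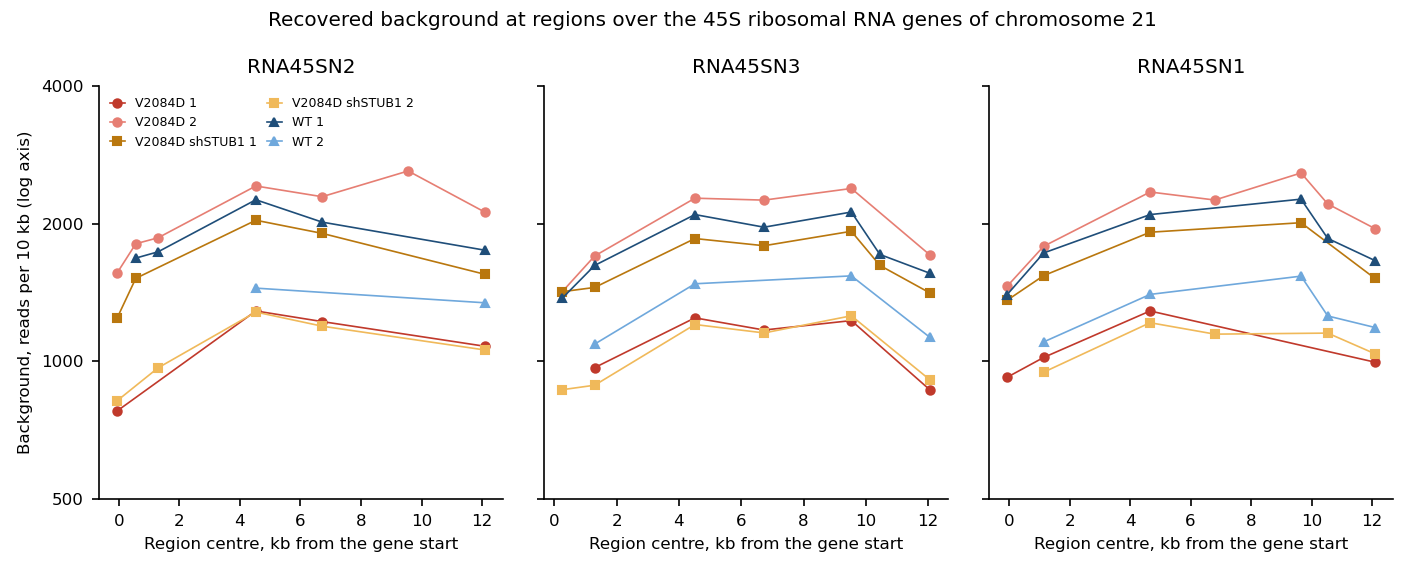
Background reads per 10 kb (log axis, vertical) at regions over RNA45SN2, RNA45SN3 and RNA45SN1 of chromosome 21, by distance of the region centre from the gene start in kb. Each line is 1 library and joins the regions where it had a peak; all values lie between 779 and 2608.

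Centred on regions of all 6 libraries, the 9 shared regions of the ribosomal RNA genes averaged 4.51 ± 0.15 in V2084D-carrying and 5.16 ± 0.26 in WT libraries (SD, n = 4 and 2), a difference of −0.65. Their values were 4.63 and 4.51 in V2084D, 4.59 and 4.30 in V2084D shSTUB1 and 5.34 and 4.97 in WT. All 9 regions lay lower in V2084D-carrying libraries without overlap, beside 13.4% of regions of all 6 libraries in the series. The 9 lie on 3 near-identical copies that may share reads, so they are not 9 separate measurements. Nothing is read from their count. Centred on all regions of a library, the 21 regions averaged 5.52 ± 0.33 in V2084D-carrying and 5.90 ± 0.30 in WT libraries, a difference of −0.38, and V2084D replicate 2 (5.87) and V2084D shSTUB1 replicate 1 (5.74) passed WT replicate 2 (5.69). The absence of overlap thus depends on the centring. The other 86 regions of the segment stood at 1.49 ± 0.12 in V2084D-carrying and 1.77 ± 0.05 in WT libraries, a difference of −0.28 without overlap. The 86 were not the same set in each library, with 39 to 68 present in V2084D-carrying and 40 to 42 in WT libraries. Under the same centring their 24 shared regions averaged 2.28 ± 0.26 in V2084D-carrying and 2.26 ± 0.13 in WT libraries, a difference of 0.02 with overlap. Centred on regions of all 6 libraries, these 24 differed by −0.25, with 10 lower without overlap and 1 higher, so the difference outside the ribosomal RNA genes also depends on the centring. Some of these 86 also had very high background, such as the one that starts at chr21:8254447, outside the annotated copies, with 878 and 1581 reads per 10 kb in V2084D, 1316 and 827 in V2084D shSTUB1 and 1356 and 948 in WT. Leaving out the ribosomal RNA gene regions brought chromosome 21 to 0.50 ± 0.05 in V2084D-carrying and 0.69 ± 0.01 in WT libraries, a difference of −0.20.

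Beyond its first 15 Mb, chromosome 21 showed no such difference over both region classes together. Its segments at 15 to 30 and 30 to 45 Mb differed by −0.02 and 0.04, with overlap in both. The classes went opposite ways at 15 to 30 Mb. Gene ends gave −0.18 with overlap, from as few as 7 regions in a library. Regions elsewhere gave 0.20 without overlap, from as few as 5. At 30 to 45 Mb gene ends gave 0.05 and regions elsewhere 0.03, both with overlap. In that segment 2 of 27 shared regions were lower without overlap. These were the end of CRYZL1 and ITSN1 and that of GART, a purine synthesis gene, and SON. The 3 that were higher included OLIG2 and CFAP410. At OLIG2 the background was 51 and 142 reads per 10 kb in V2084D, 89 and 68 in V2084D shSTUB1 and 45 and 43 in WT, a difference of 0.30 after scaling.

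Knockdown of STUB1 in V2084D cells was tested over all 190 segments with limma on the relative background, with the 3 groups in one fit. None of the 18 segments of chromosomes 11, 17 and 21 passed a Benjamini-Hochberg adjusted p of 0.05, beside 0% of all segments, and the smallest adjusted p was 0.991. At an unadjusted p under 0.05 there were 0 of the 18 and 1 of the 190. The differences, V2084D shSTUB1 minus V2084D, ran from −0.10, in the first segment of chromosome 21, to 0.11, at 45 to 60 Mb of chromosome 11. Their 95% confidence intervals reached from −0.48 to 0.38, and from −0.26 to 0.38 without that first segment. In simulated data every segment was given the same spread, the median of the real segments, and 20 of 190 segments were changed. There 51.5% of differences of 0.25 and 100% of those of 0.5 were called. The real spread differed between segments. The standard error was 0.161 in the first segment of chromosome 21, against a median of 0.0789 over the 18. The simulated shares therefore do not hold for each segment. Differences of the size seen between V2084D-carrying and WT libraries on chromosomes 11 and 17 (−0.11) were smaller than the smaller of these simulated sizes.

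**Figure D5:**
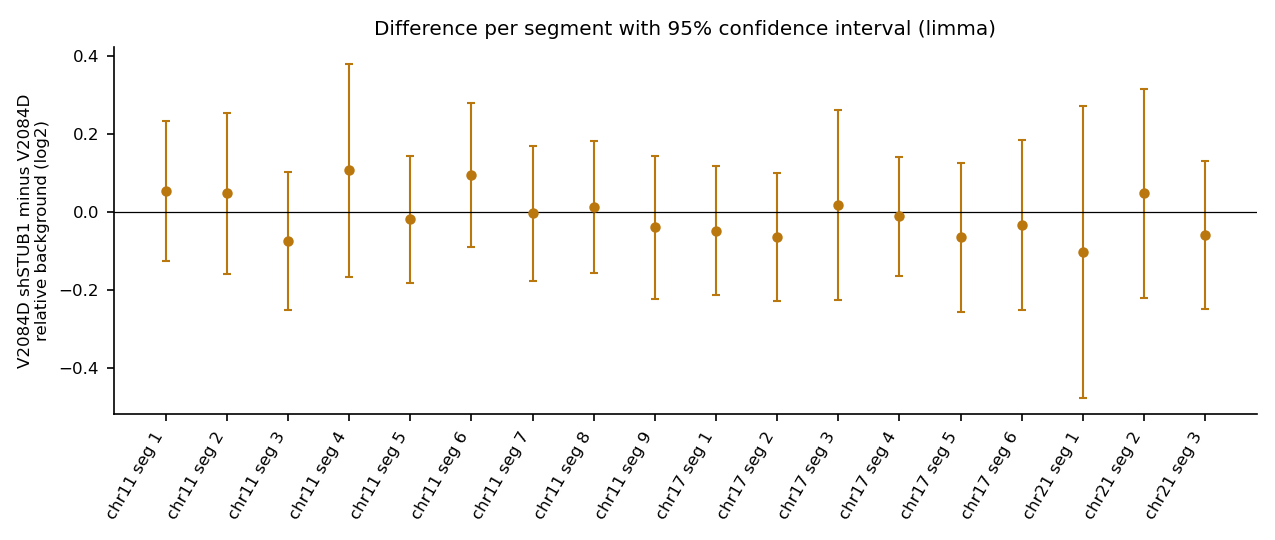
Difference in relative background (log2, vertical axis), V2084D shSTUB1 minus V2084D, for the 18 segments of chromosomes 11, 17 and 21 (horizontal axis), with limma's 95% confidence interval as bars. All points lie between −0.10 and 0.11 and every interval includes 0.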

How the data were processed

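ATAC-seq peak lists of 6 libraries were used, 1 list per library, with coordinates in hg38. The tools were, per the submitters' processing notes, MACS2, Bowtie2, Trimmomatic, Picard, SAMtools, deepTools and bedtools, and no source used here states their settings. The deposited lists give, for each summit, the authors' fold over background (a ratio) and the authors' −log10 p and −log10 q. From fold and −log10 p, whole summit reads and the background were recovered within 0.001 in −log10 p, for 99.99 to 100% of summits. Total reads per library are not in these lists, so depth was read from the lowest background. The p-values rest on the spread between libraries, which may be technical.

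Overlapping peaks (1 bp) of all lists were merged, chromosomes 1 to 22 and X were kept, and 2.07 to 2.60% of summits lay elsewhere. Gene names, gene ends and promoters came from RefSeq tables (GRCh38.p14); exons and introns were not determined. Segments of 15 Mb needed 10 regions in every library. limma 3.58.1 (R 4.3.3) fitted all 190 segments over the 3 groups, and was tested on simulated data; the other steps used Python 3.11.15, numpy 2.4.6, pandas 2.3.3 and scipy 1.17.1.

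The chromosomes, members, gene lists and rules were chosen with earlier results of these data known. Named were the 3 top-ranked gene-end regions of all 6 libraries per chromosome, the 4 gene-end and 1 other region of the V2084D-carrying libraries alone, up to 2 regions of WT alone, 1 region per direction between V2084D shSTUB1 and V2084D, up to 4 members per gene list, and the segments with the largest and smallest difference with their shared regions. The other genes named within lists (DPF2, SMARCD2, SMARCE1, CDK12, TOP2A), the other segments and the ribosomal RNA gene regions were chosen after their values were seen. Alternatives were another centring, region class, list threshold, list length, cover, segment size, replicate left out and replicate block; subtracting summit reads, leaving out the first segment of chromosome 21 or the ribosomal RNA gene regions, and a crossed block were added after seeing the data. Same-numbered libraries did not deviate together, so the numbers were not used as pairs.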

Additional observations from a re-analysis of the deposited data

Results flagged for a closer look

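Summits on unplaced or alternate scaffolds assigned to chromosomes 11, 17 and 21 lay outside all comparisons. There were 24 and 121 in V2084D, 78 and 38 in V2084D shSTUB1 and 37 and 28 in WT, and V2084D replicate 2, the deepest library, held the most.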

How the results depend on the processing

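Of 68 values recomputed under settings other than leaving out a library, 2 changed sign with almost no difference left. Another 24 moved by more than the spread between libraries or, for counts, by over 1.5 times. The cause was not tested. The other 42 moved by less. These include a gene-end difference of −2.05 points at a −log10 q of 5 or more. They also include 9 of 16 segments lower over regions of all 6 libraries, beside 27% of all segments. Scaling to the lowest background gave −0.25 (chromosome 11), −0.26 (chromosome 17) and −0.53 (chromosome 21). With this scaling 13 of 18 segments were lower and 0 higher, beside 38.4% and 1.58% of all segments. Regions elsewhere gave −0.13 (chromosome 17) and −0.54 (chromosome 21). Among these, 1 of 11 segments was lower and 0 higher, beside 10.1% and 14.6% of all segments. A −log10 q of 5 or more gave −0.0653 (chromosome 17) and −0.60 (chromosome 21). There 1 of 10 segments was lower and 0 higher, beside 12.3% and 21.9% of all segments. This threshold gave 28 regions of V2084D-carrying libraries alone (1.76%, beside 2.45% of all regions) and 0 of WT alone, beside 0.0573%. Subtracting summit reads gave −0.14 (chromosome 17). Chromosome 21 changed sign with almost no difference left at gene ends (0.000196) and without its first segment (0.0201). It gave −0.10 with medians, −0.15 over regions of all 6 libraries and −0.20 without the ribosomal RNA gene regions. Segments of 10 Mb gave 12 of 23 lower, beside 14.9% of all such segments. Equal list lengths gave 11 regions of V2084D-carrying libraries alone (0.752%, beside 1.08% of all regions) and 34 of WT alone (2.32%, beside 1.69%). They also gave a gene-end difference of 5.19 points. A 50% cover gave 51 regions of V2084D-carrying libraries alone (1.62%, beside 2.11%). Leaving out 1 library in turn gave −0.12 to −0.09 (chromosome 11), −0.12 to −0.10 (chromosome 17) and −0.47 to −0.27 (chromosome 21). It gave 6 to 11 of the 18 segments lower (11 without WT replicate 2) and 1 to 3 higher (3 without WT replicate 1). For these counts the shares over all segments were not computed, so nothing is read from them. Leaving out 1 library also gave gene-end differences of −7.73 to −2.34 points. It gave 92 to 225 regions of V2084D-carrying libraries alone (225 without V2084D replicate 1) and 2 to 72 of WT alone (72 without WT replicate 2). The 225 were 7.15%, beside 7.36% of all regions, and the 72 were 2.29%, beside 2.23%.

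With a replicate block, limma called 0 of the 18 segments between V2084D shSTUB1 and V2084D. It also called 0 with each library left out, where a lone library is assumed to vary like the other groups. With a smallest adjusted p of 0.991 these repeats say nothing about stability. Replicate differences correlated at −0.19 (V2084D shSTUB1 and V2084D), −0.16 (V2084D and WT) and 0.09 (V2084D shSTUB1 and WT) across segments, so the numbers did not pair the libraries. A crossed block also called 0, with 1 of 190 segments under an unadjusted p of 0.05. Few reads per summit (medians of 9 to 12 in V2084D-carrying and 8 to 9 in WT libraries) limit calls of presence at single regions.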
